A study of Mus musculus with 6 samples.

Results

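The epidermal growth factor (EGF) family ligands and the ErbB receptors they bind were followed in mouse kidney after ureteral obstruction. The 10 genes taken were the ligands Egf, Hbegf, Areg, Ereg, Tgfa and Btc and the receptors Egfr, Erbb2, Erbb3 and Erbb4. All non-control probes that carry one of these names on the array were used, which gave 26 probes and 71 spots, 9 probes for ligands and 17 for receptors, of 41174 probes and 28478 gene names in all. In 3 mice of the outbred CD-1 stock the left ureter had been completely tied in vivo, and each group holds 1 kidney per mouse: 3 ligated left kidneys and 3 contralateral right kidneys with no ligature. The mice are numbered 495, 485 and 512 in the labels, no other allele or agent is named, and age, sex and time after ligation are not given in the sources used here. The labels call the material both kidney and primary cells. Each kidney was hybridised to 1 single-colour array, and the comparison asks which genes differ between the obstructed kidney and its partner.

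EGF family ligands are made as membrane-anchored precursors and are released by ADAM metalloproteases. They bind ErbB receptors, which pair with each other and signal through Ras and MAP kinases and through phosphoinositide 3-kinase. In kidney, Egf is known as a product of the thick ascending limb and the distal convoluted tubule, and Egfr is found along the nephron. Erbb2 binds no known ligand of its own and works as a partner, and Erbb3 has little kinase activity.

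Levels below are log2 of the background-subtracted signal, minus the log2 of the 75th percentile of that array, and a change is the ligated minus the contralateral level of the same mouse. That percentile lay at 741 (mouse 495), 671 (485) and 1105 (512) intensity units on the contralateral arrays and at 1362, 1433 and 1068 on the ligated ones. From 65.3% to 74.2% of probes read above background, and no spot was saturated (0 on every array). The contralateral array of mouse 512 stood apart from its group. Its summed linear level over 6 proximal tubule markers was 151, against 734 and 826 in the other contralateral kidneys and 65.6, 113 and 78.2 in the ligated ones, in multiples of the 75th percentile. For 7 macrophage and leukocyte markers the sum was 85.4 there, against 17.3 and 16.5 in the other contralateral kidneys and 195, 202 and 221 in the ligated ones. Both kidneys of mouse 512 were on a slide of their own, so that the animal and the slide cannot be told apart, and values without this mouse are also the values within the other slide.

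Several receptor probes are shown because the probes of Egfr and those of Erbb4 gave different answers, while those of Erbb2 and of Erbb3 agreed in sign. Of 60 letters each, one probe of Erbb2, one of Erbb3 and one of Erbb4 cover the same stretch of the kinase-coding sequence (mm8 build, chr11:98250600-98250659 on the plus strand, chr10:127975088-127975147 and chr1:68011750-68011809 on the minus strand). Capitals mark the 33 of 56 aligned positions at which all 3 probes carry the same letter.
Erbb2 probe A_51_P216179: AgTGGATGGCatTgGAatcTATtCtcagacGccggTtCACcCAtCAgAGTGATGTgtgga
Erbb3 probe A_51_P342050: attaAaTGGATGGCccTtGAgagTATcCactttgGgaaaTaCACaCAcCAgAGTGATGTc
Erbb4 probe A_51_P396034: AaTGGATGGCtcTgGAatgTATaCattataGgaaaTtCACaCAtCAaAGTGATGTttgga
Both of the next Erbb4 probes cross exon junctions in the part that codes for the cytoplasmic tail (chr1:67975925-67977153 and chr1:67975923-68004761, minus strand). They share a run of 22 letters, in capitals, and differ upstream of it, where alternative splicing of ErbB4 is known to include or skip an exon with a binding site for phosphoinositide 3-kinase.
Erbb4 probe A_51_P283698: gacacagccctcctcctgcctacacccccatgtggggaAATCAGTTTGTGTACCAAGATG
Erbb4 probe A_52_P256090: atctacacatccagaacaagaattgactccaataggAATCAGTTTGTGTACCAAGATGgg
The probes below lie in the part that codes for the extracellular domains, that of Erbb4 at chr1:68279776-68279835 on the minus strand and that of Egfr at chr11:16783545-16783604 on the plus strand. Both were called in the tests of single probes, that of Erbb4 with contralateral readings mostly below background.
Erbb4 probe A_52_P608535: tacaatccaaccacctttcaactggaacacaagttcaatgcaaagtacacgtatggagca
Egfr probe A_52_P56471: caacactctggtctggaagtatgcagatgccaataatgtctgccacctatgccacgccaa

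No member passed the test between ligated and contralateral kidneys over all 3 mice. With limma's paired fit and Benjamini-Hochberg adjustment over 19598 genes, 0 of the 8 members that could be tested were called at an adjusted p under 0.05, and 3 had an unadjusted p below that value. Areg and Ereg were not above background on all 3 arrays of either group and were not tested. Over all genes tested, 6019 were called, which is 30.7%: 16.0% were higher and 14.7% lower in the ligated kidneys. The split of 3137 higher and 2882 lower became 2566 and 5941 with each array centred on its median, 2388 and 654 with arrays centred on spike-in spots, and 1991 and 2765 with normexp background correction. The 3 ligated levels did not overlap the 3 contralateral ones in 3 of the 8 members, Tgfa, Btc and Erbb3, against 53.5% of all genes tested. Of the 3 contralateral Tgfa readings only 1 was above background, and Tgfa passed the filter only through its ligated arrays. The median change of the 8 members was -0.53, and that of all genes was -0.01.

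Leaving out mouse 512 changed which members were called. In mice 495 and 485 alone, Egf and Erbb4 were lower and Tgfa was higher in the ligated kidney, with adjusted p = 0.0026, 0.0093 and 0.013 by the same paired limma fit. The contralateral Tgfa readings of both mice were below background. The Erbb4 call is that of its brightest probe, A_51_P283698. Tested as single probes without mouse 512, A_52_P608535 and A_51_P396034 of Erbb4 were called higher instead (2.23 and 1.97, limma adjusted p = 0.0043 and 0.0090). Their contralateral readings in mice 495 and 485 were below background. Among all genes, that fit called 11026 of 19598. The unpaired fit that leaves out only the contralateral kidney of mouse 512 gave the same 3 calls. This alternative was chosen after the data were seen. Without mouse 495 or without mouse 485, limma called 0 genes (4950 and 4948 at an unadjusted p under 0.05), and the calls of single probes given below were lost as well.

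**Figure D1:**
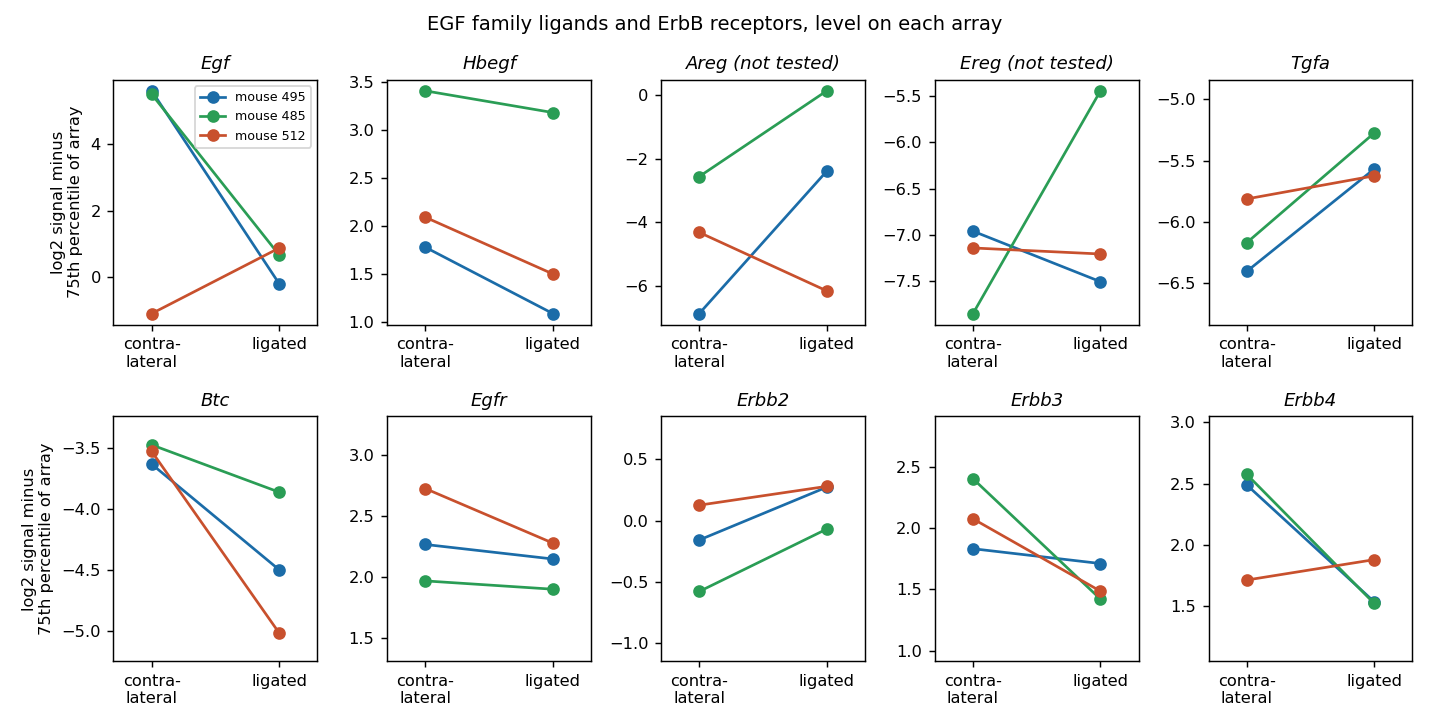
Level of each of the 10 genes in the contralateral and the ligated kidney, as log2 signal minus the 75th percentile of the array, with a line joining the 2 kidneys of each of 3 mice; each panel has its own vertical scale, and a gene with several probes is shown by its brightest one. The contralateral Egf level of mouse 512 is -1.11, where the other contralateral kidneys are at 5.62 and 5.52.

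Egf, the ligand that gives the family its name, differed most between kidneys and between mice. On the contralateral side, mouse 495 stood at 5.62, mouse 485 at 5.52 and mouse 512 at -1.11. Their ligated kidneys stood at -0.21, 0.66 and 0.87. A single probe with 10 spots read it, and the spots of 1 array differed by an SD of at most 0.062. Before scaling, its mean signal was 36438, 30719 and 512 intensity units in the contralateral kidneys and 1181, 2267 and 1953 in the ligated ones. The level was therefore high on the contralateral side of mice 495 and 485 and low on the other 4 arrays, and the groups overlapped. The ligated kidney was 56.7-fold lower than its partner in mouse 495 and 28.9-fold lower in mouse 485, but 3.94-fold higher in mouse 512. The mean change was -2.90 ± 1.73 (SE, n = 3 mice), with a 95% interval from -7.67 to 1.87 and adjusted p = 0.241. Without mouse 512 it was -5.34 ± 0.29 (n = 2 mice, adjusted p = 0.0026), and without only its contralateral kidney it was -5.13 in the unpaired fit.

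The low contralateral Egf level of mouse 512 came with lower levels of most, not all, thick limb and distal tubule markers. Of the 8 tested, 6 lay below both other contralateral kidneys there, while Cldn16 and Cldn19, claudins of the thick limb, lay above their mean, by 0.12 and 0.78 log2 units. Against the mean of the other contralateral kidneys, that kidney was 102-fold lower for Egf. For Calb1, the calbindin of the distal convoluted tubule, it was 9.82-fold lower, with contralateral levels of 6.13, 5.29 and 2.42 in mice 495, 485 and 512. For Slc12a3, the thiazide-sensitive sodium chloride cotransporter, it was 3.86-fold lower, and for Umod, uromodulin of the thick limb, 2.09-fold lower. Of 9 thick limb and distal tubule markers, 8 were tested, and 1 was called, Slc12a3, which was lower in the ligated kidneys (-1.83 ± 0.43, adjusted p = 0.046). Pvalb was not tested, because it was above background on 2 of 3 arrays in each group. The summed level of the 8 markers was 355, 241 and 110 on the contralateral side (mice 495, 485, 512) and 156, 122 and 166 in the ligated ones, so that the groups overlapped. Umod, the brightest of the list, differed by -0.17 ± 0.35 (adjusted p = 0.712). In whole tissue, fewer cells of a type and less RNA per cell cannot be told apart, and the part that the make-up of cells played in any value here was not tested.

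Markers of other kidney cells differed between the groups too. Of 6 proximal tubule markers 4 were lower, and of 5 collecting duct markers 4 were lower. Among all genes tested, 14.7% were lower and 16.0% higher. Under the other scalings and background corrections, lower calls ranged from 3 to 6 for proximal tubule and from 3 to 4 for collecting duct. Higher calls numbered 3 of 4 for endothelium, 2 of 5 for T cells and 3 of 5 tested, of 9 listed, for eosinophils and mast cells. Siglecf, 1 of the latter 3, was above background on 0 of 3 contralateral arrays and passed the filter only through its ligated arrays. Its call was lost with normexp background correction (0.17, limma adjusted p = 0.505). Under spike-in centring, 1 of 4 endothelial markers was called. For podocytes and urothelium limma called 0 of 3 tested each, with 0 and 1 at an unadjusted p under 0.05.

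**Figure D2:**
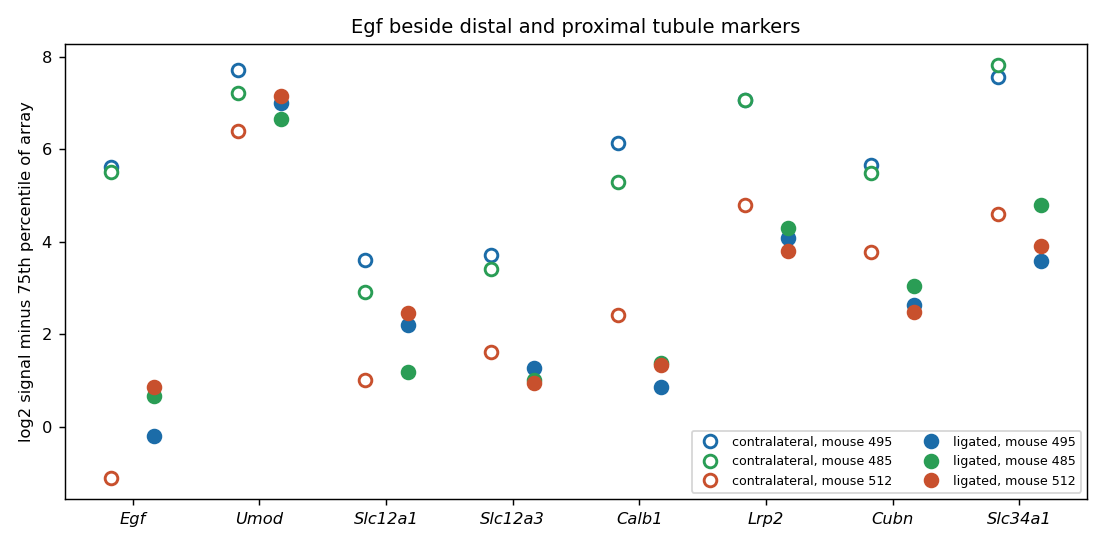
Level of Egf beside markers of the thick limb and distal tubule (Umod, Slc12a1, Slc12a3, Calb1) and of the proximal tubule (Lrp2, Cubn, Slc34a1), as log2 signal minus the 75th percentile of the array, with open circles for contralateral and filled circles for ligated kidneys and 1 colour per mouse. The open circle of mouse 512 lies below those of the other mice for each of the 8 genes, at -6.68 log2 units relative to their mean for Egf and -1.06 for Umod. Cldn16 and Cldn19, thick limb markers that lay above that mean (by 0.12 and 0.78), are not drawn.

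The genes whose profile lay nearest to that of Egf over the 6 arrays were Inmt, Indol1 (Ido2 in current naming) and Hpd. Their root mean square distances from Egf, after each gene was centred on its own mean, were 0.64, 0.65 and 0.69 log2 units. Inmt is a methyltransferase, Ido2 an enzyme of tryptophan breakdown and Hpd an enzyme of tyrosine breakdown. Inmt stood at 6.82, 6.79 and 1.86 on the contralateral side (mice 495, 485, 512) and at 2.35, 2.84 and 2.87 on the ligated side. Like Egf, none of the 3 was called over all mice, with adjusted p between 0.180 and 0.295.

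Hbegf, the heparin-binding ligand, had its highest levels in mouse 485 on both sides. Mice 495, 485 and 512 read 1.78, 3.41 and 2.09 on the contralateral side and 1.09, 3.18 and 1.504 on the ligated side. The ligated kidney was lower than its partner in 3 of 3 mice, by 0.69, 0.23 and 0.59 log2 units, although the levels of the groups overlapped. The change was -0.50 ± 0.17 (95% interval -0.96 to -0.04) and was not called, with adjusted p = 0.086. With quantile normalization and with spike-in centring it was -0.16 (limma adjusted p = 0.621 and 0.829). With median centring it was -0.81 and was called (adjusted p = 0.028). The difference between mice was larger than the difference between kidneys, and without the pairing the SE was 0.67 and the adjusted p was 0.572.

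Btc, betacellulin, read lower in the ligated kidney than in its partner in 3 of 3 mice. Its levels were -3.64, -3.48 and -3.53 in the contralateral kidneys and -4.50, -3.86 and -5.01 in the ligated ones. The groups did not overlap, and the contralateral kidneys differed by an SD of only 0.08 against 0.58 in the ligated ones. The change was -0.91 ± 0.26 (1.88-fold lower, 95% interval -1.63 to -0.19) with adjusted p = 0.064. It was called under median centring, quantile normalization and normexp background correction. Under spike-in centring it was not called (-0.57, limma adjusted p = 0.480), nor in any fit that left out 1 mouse. A second Btc probe was not above background on any array.

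Tgfa, transforming growth factor alpha, lay close to the limit of detection. Its probe of 10 spots read -6.40, -6.17 and -5.81 on the contralateral side (mice 495, 485, 512) and -5.57, -5.27 and -5.62 in the ligated ones. All ligated levels lay above all contralateral ones, but of the contralateral arrays only that of mouse 512 was above background. With the other 2 raised to the lowest level above background on their array, the ligated kidneys were 1.33-fold higher. The fitted change was 0.64 ± 0.21 with adjusted p = 0.082 over all mice. Without mouse 512 it was 0.87 ± 0.14 with adjusted p = 0.013, a call that rests on contralateral readings below background in both mice. The second probe gave 0.11 ± 0.30, also with 1 of 3 contralateral arrays above background. With normexp background correction the direction turned, to -0.33.

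Areg, amphiregulin, differed strongly between mice, with an SD of the 3 differences between kidneys of 3.26. It stood at -6.87, -2.56 and -4.32 on the contralateral side (mice 495, 485, 512) and at -2.39, 0.14 and -6.16 in the ligated ones. The contralateral array of mouse 495 and the ligated array of mouse 512 were below background for this probe. With the contralateral reading of mouse 495 raised to the lowest level above background on that array, its ligated kidney was 12.1-fold higher. The ligated kidney was 6.48-fold higher than its partner in mouse 485. In mouse 512 it was 3.58-fold lower, by a ligated reading below background. With only 2 arrays of each group above background, the gene was not tested. Ereg, epiregulin, was above background on 1 array, the ligated kidney of mouse 485, at -5.44 by the probe designed to a cDNA clone, and its other probe was above background on none. That kidney also had the highest Areg and Hbegf levels among the ligated kidneys.

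**Figure D3:**
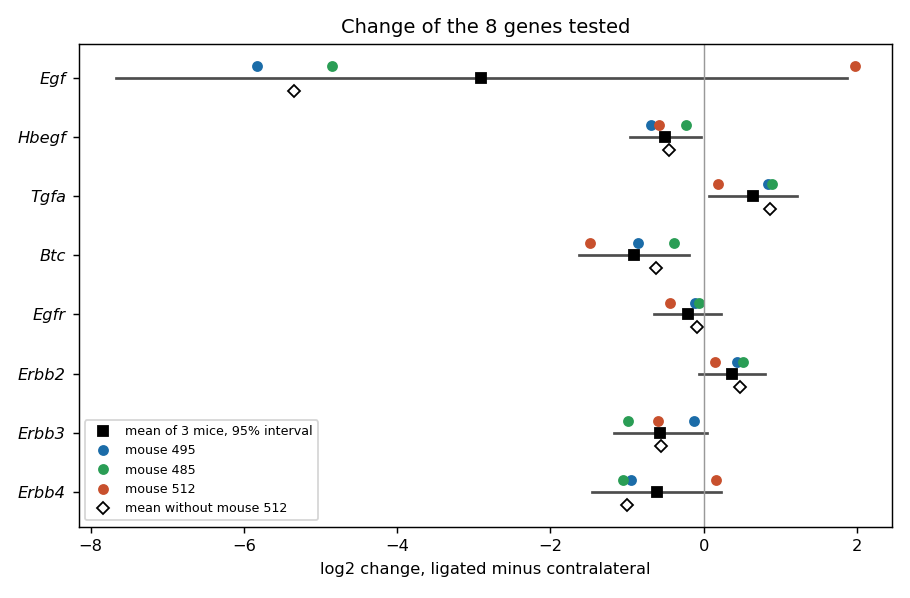
Log2 change (ligated minus contralateral) of the 8 genes tested, with circles for the 3 mice, squares and bars for their mean and its 95% interval from the paired limma fit, and open diamonds for the mean without mouse 512. The circles of Egf span -5.82 to 1.98, while those of Erbb2 lie between 0.15 and 0.51.

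Egfr, the main receptor of these ligands, was called or not depending on where along the gene it was read. Its brightest probe, A_52_P106259, which the array describes as transcript variant 1, stood at 2.27, 1.97 and 2.72 on the contralateral side (mice 495, 485, 512). In the ligated kidneys it stood at 2.15, 1.90 and 2.28, so that the groups overlapped, and its change was -0.21 ± 0.16 (95% interval -0.65 to 0.23, adjusted p = 0.336). The sign of this small change turned under quantile normalization (0.068) and spike-in centring (0.13). A second probe described as variant 1 gave -0.19 ± 0.19.

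The 2 probes described as Egfr variant 2, a shorter transcript, were lower in the ligated kidneys. Probe A_51_P392242, with 10 spots, read 0.91, 0.82 and 1.03 on the contralateral side (mice 495, 485, 512) and -0.06, -0.09 and -0.50 in the ligated ones. The groups did not overlap, the change was -1.14 ± 0.19 (2.20-fold lower), and its adjusted p over 29093 single probes was 0.030. Probe A_52_P56471, whose sequence is given above, read 0.22, 0.16 and 0.28 against -0.53, -0.69 and -0.81, a change of -0.90 ± 0.15 (1.86-fold lower, adjusted p = 0.030). Both lie 5′ of the variant 1 probes on the genome, at 131.7 and 127.9 kb from the first Egfr probe, where the variant 1 probes lie at 156.5 and 158.2 kb. Whether A_52_P56471 also pairs with variant 1 was not tested. The probes at 0.0 and 162.0 kb, designed to cDNA clones, gave 0.15 ± 0.26 and -0.17 ± 0.19. Both calls were lost with spike-in centring, which gave changes of -0.80 and -0.56 (adjusted p = 0.283 and 0.436), while they held without mouse 512 (-0.94 and -0.80).

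The difference between Egfr probes is the same however arrays are centred, since both probes share the array, though not under other processing. The change of A_52_P106259 exceeded that of A_51_P392242 by 0.93 ± 0.09 log2 units (95% interval 0.67 to 1.18), with 0.85, 0.85 and 1.08 in mice 495, 485 and 512. It was 1.16 with quantile normalization and 0.91 with normexp background correction. A paired limma fit over the 2 brightest probes of 6627 genes, chosen after the data were seen, gave this difference an adjusted p of 0.070. That fit called 0 of 6627 genes, with 1743 at an unadjusted p under 0.05, and without mouse 512 it called 155.

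**Figure D4:**
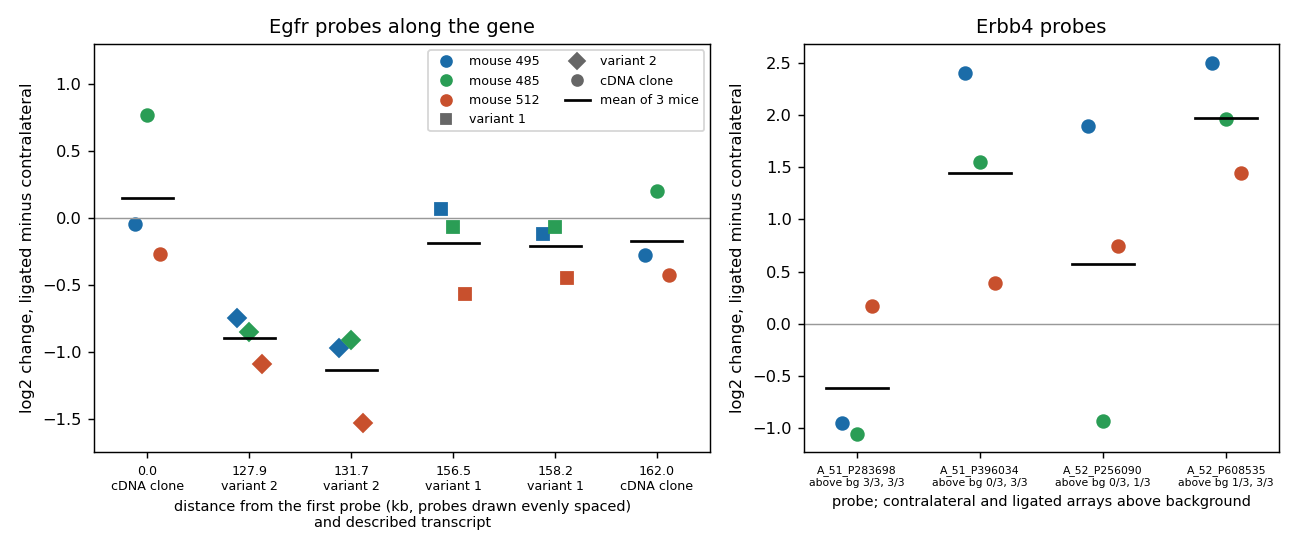
Log2 change (ligated minus contralateral) of each Egfr probe, ordered along the gene by distance from the first probe (left), and of each Erbb4 probe (right), with 1 point per mouse, colours as in the key and black lines at the mean of 3 mice. The 2 Egfr probes described as variant 2 lie at -0.90 and -1.14, below the other 4, and the Erbb4 probes differ in sign.

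Erbb4, which binds neuregulins and some EGF family ligands, gave opposite signs at different probes. Its brightest probe, A_51_P283698, described as a predicted transcript variant, read 2.49, 2.58 and 1.71 on the contralateral side (mice 495, 485, 512) and 1.53, 1.52 and 1.88 in the ligated ones. The level was lower after ligation in mice 495 and 485, by 0.95 and 1.05, and 0.17 higher in mouse 512, and the groups overlapped. The change was -0.61 ± 0.31 (95% interval -1.46 to 0.23, adjusted p = 0.180) over all mice and -1.004 ± 0.14 without mouse 512.

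The extracellular Erbb4 probe A_52_P608535 moved the other way. It read -6.68, -7.02 and -5.18 in the contralateral kidneys and -4.17, -5.06 and -3.73 in the ligated ones, without overlap. Of the contralateral arrays only that of mouse 512 was above background. With the other 2 raised to the lowest level above background on their array, the ligated kidneys were 2.58-fold higher. The fitted change was 1.97 ± 0.25 with adjusted p = 0.024, higher in 3 of 3 mice. With normexp background correction it was 0.13 and was not called. The kinase probe A_51_P396034 was not well above background on any contralateral array (0 of 3) and was above it on all ligated arrays, where it read -5.89, -6.64 and -6.05 in mice 495, 485 and 512. Its adjusted p was 0.067. No fold is given, because it is under 1 with the contralateral readings raised in the same way. The junction probe A_52_P256090 was above background on 1 array of 6. The fitted change of A_51_P283698 was below that of A_52_P608535 by 2.59 ± 0.49 log2 units, in 3 of 3 mice, with adjusted p = 0.091 over the 6627 genes. In mice 495 and 485 this difference is set against contralateral readings of A_52_P608535 that were below background. The mean of the 3 tested Erbb4 probes, taken in place of the brightest one, was called higher by limma (0.93, adjusted p = 0.038). Of these, A_52_P608535 and A_51_P396034 passed the filter only through their ligated arrays. This call rests on their contralateral readings below background and is no separate evidence of a rise.

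Erbb2, the ligand-less partner receptor, varied little, with an SD of the differences of 0.19. It read -0.16, -0.58 and 0.13 on the contralateral side (mice 495, 485, 512) and 0.27, -0.07 and 0.28 in the ligated ones. The ligated kidney was higher in 3 of 3 mice, with overlapping groups, and the change was 0.36 ± 0.16 (95% interval -0.06 to 0.79, adjusted p = 0.135). The size of this change depended on the scaling. It was 0.059 with median centring and 0.058 with the deposited value table, but 0.35 with quantile normalization and 0.70 with spike-in centring. The kinase probe A_51_P216179 gave 0.45 ± 0.16.

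Erbb3, which signals through partners, was read by 5 probes that had the same sign. The brightest, designed to a predicted transcript, stood at 1.83, 2.40 and 2.08 on the contralateral side (mice 495, 485, 512) and at 1.71, 1.42 and 1.49 in the ligated ones. The groups did not overlap, and the change was -0.56 ± 0.22 (95% interval -1.18 to 0.05, adjusted p = 0.116). The other 4 probes gave changes between -0.63 and -0.19, none of them called. One of them, the kinase probe A_51_P342050, gave -0.19 ± 0.16. At this stretch of the kinase-coding sequence, the changes of Erbb2 and Erbb3 thus differed in sign, and neither was called.

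Over all members, 21 of 26 probes could be tested, and 3 were called: 2 Egfr probes lower and 1 Erbb4 probe higher. That Erbb4 probe passed the filter only through its ligated arrays. Its call was lost with normexp background correction (0.13, limma adjusted p = 0.714). Among all 29093 probes tested, 30.2% were called.

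Lists of other genes of the pathway were read against the 30.7% of all genes that were called. Of the 5 other ErbB ligands, 4 were on the array under their names and 2 were tested. Nrg4, a neuregulin that binds Erbb4, was lower, at -2.73, -2.16 and -2.84 on the contralateral side (mice 495, 485, 512) and at -4.74, -4.09 and -3.91 in the ligated ones. All ligated levels lay below all contralateral ones, and the change was -1.67 ± 0.25 (3.18-fold lower, adjusted p = 0.028). It was called under each of the 4 other scalings and background corrections tried. Nrg1 differed by 0.33 ± 0.47.

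Of the 8 genes for ligand shedding, 2 were higher and 0 lower, with a median change of 0.64. Adam19, a metalloprotease that cleaves neuregulins, stood at -4.55, -4.48 and -2.18 in the contralateral kidneys and at -1.15, -1.10 and -0.82 in the ligated ones (2.71 ± 0.49, adjusted p = 0.033). Adam12, a metalloprotease known to release Hbegf, had 1 of 3 contralateral arrays above background and a fitted change of 2.71 ± 0.54 (adjusted p = 0.036). With the other contralateral readings raised to the lowest level above background on their array, Adam12 was 3.18-fold higher. Its call was lost with quantile normalization (adjusted p = 0.056) and with normexp background correction (0.29, adjusted p = 0.203). Adam17, the main sheddase of Areg and Tgfa, differed by 0.56 ± 0.15 (adjusted p = 0.057). Adam9, of the same list, went the other way by a similar amount (-0.58 ± 0.15, adjusted p = 0.055), lower in 3 of 3 mice. Both were chosen for mention after their values were seen. In the same kidneys, 6 of 7 fibroblast markers and 6 of 7 macrophage and leukocyte markers were higher. The summed fibroblast level was 24.3, 13.5 and 57.8 on the contralateral side (mice 495, 485, 512) and 210, 109 and 165 in the ligated ones. The part of these cells in the 2 calls was not tested.

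Among adaptors and effectors, 2 of 22 genes tested were higher and 2 lower, with a median of -0.11. Pik3r1, a regulatory subunit of phosphoinositide 3-kinase, was 1.99-fold higher (0.99 ± 0.20, adjusted p = 0.037). Map2k2, a kinase that activates ERK, was 1.93-fold lower, and Hras, a Ras GTPase, was 1.84-fold lower. These calls depended on the scaling, with 0 higher and 8 lower under median centring and none of 22 under spike-in centring.

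Of 16 feedback inhibitors tested, 1 was higher and 1 lower, and the median was -0.01. Cblb, a ubiquitin ligase, was 2.04-fold higher (1.03 ± 0.25, adjusted p = 0.047), and Lrig1, a membrane protein that lowers ErbB receptor levels, was 1.71-fold lower (-0.78 ± 0.16, adjusted p = 0.038). Cblb was called under none of the 4 other scalings and background corrections, with adjusted p between 0.063 and 0.114, and Lrig1 lost its call under spike-in centring (adjusted p = 0.488). Of 10 target genes of MAP kinase signalling, limma called 0, and 2 had an unadjusted p under 0.05. Mouse 495 had a median change of 1.85 over them, mouse 485 one of 0.89 and mouse 512 one of -0.29. Without mouse 512, 4 of the 10 were called higher and 2 lower. In that fit, 5368 of all 19598 genes were called higher and 5658 lower.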

How the data were processed

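Total RNA was labelled with Cy3 and hybridised to Agilent arrays, per the protocols in the labels. For each array the authors deposited a scanner table with the processed signal, a linear intensity that was background-subtracted within the array, per the file headers. Feature Extraction is version 10.5.1.1 in the headers but 9.1 in the submitters' processing notes. The authors also deposited a value table, a ratio of each signal to its array's median. Flags for background, saturation and outliers are other values of 0 or 1, per the file headers. Probe positions are in mm8, per the file headers.

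Flagged spots (43 to 79 per array) were left out, log2 signals were centred on the array's 75th percentile, and spots of a probe were averaged. Above background means that 0.5 or more of a probe's spots were well above it. A reading below background can lie above the lowest level that passed on its array, so folds against that level are not strict lower bounds. Probes above background on all 3 arrays of a group were tested, and the brightest represented its gene. Names came through RefSeq accessions for 24375 probes (a table of the GRCm38.p6 assembly, used for names only), including 21 of the 26 member probes, and otherwise from the file for 16799. limma 3.58.1 in R 4.3.3 was run with the mouse as a fixed block (2 residual degrees of freedom), two-sided, with Benjamini-Hochberg adjustment. The fit was also run on simulated data with the same noise in every gene and no mouse that stands apart. That run cannot show how the fit behaves with a mouse such as 512. The labels' mouse numbers pair the kidneys, whose deviations correlated at r = 0.194, 0.481 and 0.271 in mice 495, 485 and 512 over all genes. Calls needed an adjusted p under 0.05. Named were all members, up to 4 called genes of each pathway list, the summed level of marker lists and the 3 genes nearest to Egf, and other genes were chosen after their values were seen. One gene that this rule takes is not reported here. The members and lists were chosen with earlier results of these data known. The number of arrays limits the precision. Alternatives varied scaling, background correction, filter, probe choice, block and the mice used.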

Additional observations from a re-analysis of the deposited data

How the results depend on the processing

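Over all genes, 6019 were called, 3137 higher and 2882 lower. Median centring gave 8507 (2566 higher, 5941 lower), the authors' deposited values 8499 (2561 and 5938), spike-in centring 3042 (2388 and 654), normexp 4756 (1991 and 2765) and no filter 2683 (1773 and 910). Without one mouse the counts ranged from 0 to 11026 (0 to 5368 higher, 0 to 5658 lower). Leaving out mouse 495 or 485 gave 0 calls, with 4950 and 4948 genes at an unadjusted p under 0.05. The unpaired fit without the contralateral kidney of mouse 512 gave 11042 (5168 and 5874). Without the replicate block 5555 genes were called, and no call of a member changed. The median change of all genes moved from -0.01 to -0.32 with median centring, 0.32 with spike-in centring and -0.18 with normexp.

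Among members, 0 were called higher and 0 lower. Lower calls numbered 3 with median centring and with the deposited table (Btc, Erbb3, Hbegf), and 1 with quantile normalization and with normexp (Btc). The mean of a gene's probes gave 1 higher (Erbb4, turned to 0.93), a mean that includes probes tested only through their ligated arrays. Without one mouse the counts ranged from 0 to 1 higher and 0 to 2 lower, and without the contralateral kidney of mouse 512 they were 1 and 2. Egfr turned to 0.068 with quantile normalization and 0.13 with spike-in centring, and Tgfa to -0.33 with normexp. Of single member probes, 1 was called higher and 2 lower. Higher calls numbered 0 with normexp and with the filter on all 6 arrays, 2 with slide as the block, 0 to 4 without one mouse and 4 without the contralateral kidney of mouse 512. Lower calls numbered 5 with median centring and the deposited table, 0 with spike-in centring, 1 with no filter, 0 to 4 without one mouse and 4 without that kidney. The cause of these shifts was not tested. Signals near background limit Areg, Ereg, Tgfa and 3 of the 4 Erbb4 probes.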
